A study of Mus musculus with 6 samples.

Results

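The nuclear genes of the mitochondrial respiratory chain and the ATP synthase were compared between Eomes-positive and Eomes-negative γδ T cells of mouse spleen. Members were the genes whose name in the array files begins with Nduf, Uqcr or Atp5, is Sdha, Sdhb, Sdhc or Sdhd, or begins with Cox followed by a number from 4 to 8. This gave 93 of 30199 gene names, each represented by its probe with the highest mean signal. They comprised 36 complex I subunits, 7 complex I assembly factors (the Ndufaf genes), 4 complex II subunits, 8 complex III subunits, 19 complex IV subunits and 16 ATP synthase names, 1 of which is the pseudogene Atp5c1-ps. Another 3 names, Atp5s, Atp5sl and Ndufa4l2, matched the spelling without being chain subunits. They were kept as a class of their own, but counts over all members include them.

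The GFP+ group was CD3+ TCRγδ+ TCRβ- cells with GFP, and the GFP- group was the same gate without GFP. Both came from Eomes-IRES-GFP mice on a C57BL6 background, in which GFP is translated from the Eomes messenger RNA, so every mouse carried the reporter allele. Eomes is a T-box transcription factor of cytotoxic lymphocytes. In each of 3 independent sorts, spleens of 4 to 6 mice were pooled, cells bearing B220, CD4 or CD8β were depleted, and both groups were collected. Arrays with the same replicate number were taken as coming from the same sort, as their ages and RNA inputs match. The mice were 9 weeks old in sort 1, 9.5 weeks in sort 2 and 7.5 weeks in sort 3. RNA inputs were 9 ng in sorts 1 and 2 and 4 ng in sort 3, amplified once and hybridised to 1-colour Agilent arrays, 3 arrays a group.

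In the respiratory chain, complexes I and II pass electrons from NADH and succinate to ubiquinone, complex III passes them to cytochrome c, and complex IV reduces oxygen. Complexes I, III and IV pump protons, and the ATP synthase uses the resulting gradient to make ATP. Most subunits are encoded in the nucleus and a few in mitochondrial DNA, and several complex IV subunits exist as tissue-specific isoforms encoded by paralogous genes. Among mouse γδ T cells, those that produce interleukin-17 have been described as relying more on oxidative metabolism and those that produce interferon-γ more on glycolysis.

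The level of a gene is given as log2 intensity relative to the array's 75th percentile, so a level of 0 is that percentile, and levels of different genes are not compared because probes differ in response. Differences are GFP+ minus GFP- on the log2 scale, tested with limma over 16361 genes that were well above background on at least 3 of the 6 arrays, with Benjamini-Hochberg adjustment and a threshold of 0.05. Eomes, the check of the sort, had intensities of 62748, 49784 and 11886 in GFP+ cells of sorts 1, 2 and 3, against 2767, 3105 and 249 in GFP- cells, that is, 4.76 log2 units higher (SE 0.59, adjusted p = 0.0178 by limma). The share of probes well above background was 47.7% to 56.6%, and the 75th percentiles were 1581 to 1684 in sorts 1 and 2 but 534 and 549 in sort 3. Arrays of the same sort deviated together (r of 0.808 to 0.818 over genes). All 9 of the γδ T cell identity genes on the array were measured on every array, with summed levels of 260 to 328 in GFP+ cells and 278 to 355 in GFP- cells, where 1 is the 75th percentile. Summed markers of αβ T cells were 5.32 to 6.49 in GFP+ cells and 11.7 to 15.3 in GFP- cells (6 of 7 measured on any array, Cd40lg on none). Those of B cells were 7.28 to 11.5 in GFP+ cells and 14.8 to 18.3 in GFP- cells (9 of 10 measured, Ighm on none). Those of NK cells and ILC1 were 98.5 to 181 in GFP+ cells and 48.0 to 172 in GFP- cells, with all 10 measured. Of these 10 genes 9 were higher in GFP+ cells of all 3 sorts, with a median difference of 1.30. By limma 3 were called higher, beside 1.2% of all genes: Klre1 (4.33, adjusted p = 0.00439), Styk1 (2.62, 0.0332) and Klrb1c (1.66, 0.0129). Of 6 tested dendritic cell markers, only Itgax was called higher (3.65, limma adjusted p = 0.0432), beside 1.2% of all genes. That list was mixed, with a median difference of 0.03 and 2 genes below 0.

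Of the 93 members, 89 were tested and 88 were measured on all 6 arrays. One member, Cox7a1, passed the test, and it was lower in GFP+ cells. No member was called higher. Over all genes tested, 1.56% were called lower and 1.2% higher. The sort was also used as a block, a pairing taken from the replicate numbers and the correlations of same-numbered arrays. Cox7a1 was then still the only member called (adjusted p = 0.00654), while 4.33% of all genes were called lower and 3.67% higher. At an unadjusted p under 0.05, 2 members were lower (Cox7a1 and Ndufv3) and 1 was higher (Atp5s), against 6.32% and 5.93% of all genes. With the slide as a block Cox7a1 was again the only member called, beside 1.56% of all genes lower and 1.05% higher. That fit takes nothing from the GFP+ array of sort 2, which was alone on its slide. In bulk RNA, fewer cells expressing a gene and less of its RNA per cell cannot be told apart.

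**Figure D1:**
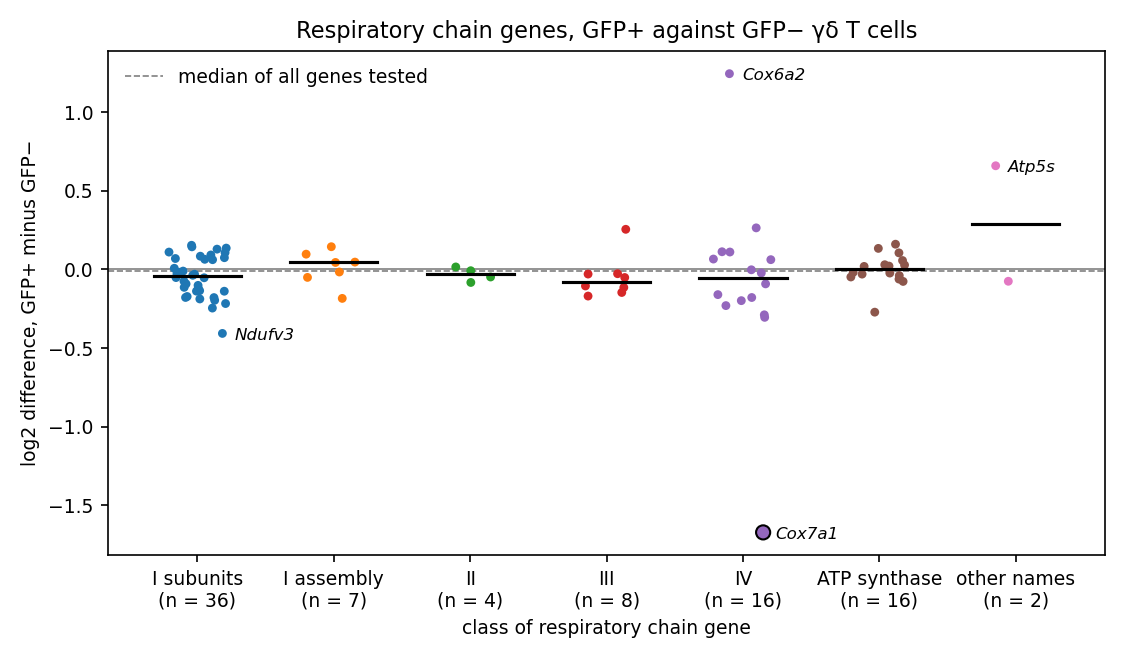
Log2 difference (GFP+ minus GFP-, vertical axis) of each of the 89 members tested, by class on the horizontal axis, with 1 point per gene, a bar at the median of each class and a dashed line at the median of all genes. Cox7a1, ringed, is the only member past the test, at -1.67, and the class medians lie between -0.08 and 0.04 except for the 2 other name matches.

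The class medians, with every tested member in them, were close to 0. They were -0.04 for complex I subunits, 0.04 for complex I assembly factors, -0.03 for complex II, -0.08 for complex III, -0.06 for complex IV (-0.02 without Cox7a1) and 0.00 for the ATP synthase, beside -0.01 for all genes. For 86 of the 89 members (96.6%), the 95% confidence interval of the difference excluded a change of 2-fold in either direction, against 60.5% of all genes. The exceptions were Cox7a1, Cox6a2 and Atp5s. For 66 members (74.2%) the interval also excluded a change of 1.5-fold, against 23.2% of all genes. The members are brightly measured, with a median level at the 95.2 percentile of all gene names, and their median standard error was 0.16 against 0.23 for all genes. In all 3 sorts, 31 members (34.8%) were lower in GFP+ cells and 14 (15.7%) were higher. Over all genes these shares were 27.1% and 25.2%, and over the 2138 genes at or above the members' lower quartile of level they were 28.8% and 32.2%. The arrays of the groups did not overlap for 5 members that were lower in GFP+ cells, Cox7a1 and Ndufv3 among them, and for 1 that was higher (Atp5s), beside 9.69% and 8.53% of all genes.

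Complex IV, cytochrome c oxidase, held the called member. Cox7a1 encodes the heart and skeletal muscle isoform of subunit VIIa, and Cox7a2 encodes the isoform found in most tissues. The RefSeq promoters of the pair (build GRCm38.p6, 250 bases before to 50 after the start site) are shown because the isoforms gave different results, with that of Cox6a1, a bright complex IV gene, as an example that holds motifs of factors known to drive respiratory chain genes. Cox7a1 lies at chr7:30183921-30184220 on the plus strand, Cox7a2 at chr9:79759804-79760103 on the minus strand and Cox6a1 at chr5:115348909-115349208 on the minus strand. Capitals mark matches to an NRF-1 or an ETS (GABP) motif on either strand.
Cox7a1: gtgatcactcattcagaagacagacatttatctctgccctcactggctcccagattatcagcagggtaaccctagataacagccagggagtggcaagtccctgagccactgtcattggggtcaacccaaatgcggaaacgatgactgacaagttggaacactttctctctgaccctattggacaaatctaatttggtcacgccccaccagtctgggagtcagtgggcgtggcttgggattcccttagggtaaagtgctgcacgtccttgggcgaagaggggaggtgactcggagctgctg
Cox7a2: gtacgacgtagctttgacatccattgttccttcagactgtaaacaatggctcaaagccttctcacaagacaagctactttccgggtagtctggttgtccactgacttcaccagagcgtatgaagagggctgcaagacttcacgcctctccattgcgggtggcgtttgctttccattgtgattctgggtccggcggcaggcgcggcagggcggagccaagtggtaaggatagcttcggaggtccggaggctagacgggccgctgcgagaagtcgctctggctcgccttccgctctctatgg
Cox6a1: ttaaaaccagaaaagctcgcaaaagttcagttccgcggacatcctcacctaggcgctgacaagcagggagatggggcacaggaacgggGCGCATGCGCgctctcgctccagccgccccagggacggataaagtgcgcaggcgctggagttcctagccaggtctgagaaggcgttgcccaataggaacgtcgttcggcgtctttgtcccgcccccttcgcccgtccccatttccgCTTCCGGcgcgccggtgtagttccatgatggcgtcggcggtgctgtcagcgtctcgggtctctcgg

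The motifs searched, on both strands, were GCGCATGCG for NRF-1, CCGGAAG for ETS factors such as GABP, and AAGATGGCG for YY1, and a window with overlapping matches was counted once for each motif. Among the 76 members found in the RefSeq table, with 82 promoter windows, 10 windows (12.2%) held the NRF-1 letters, against 1.75% of all 32851 windows. The ETS letters were in 17 (20.7%), against 8.86% of all windows, and the YY1 letters in 9 (11.0%), against 1.40%. Of those 9 windows, 2 belong to Atp5sl, which is not a chain subunit. Any of the 3 motifs was found in 31 windows (37.8%) of the members and in 11.4% of all windows. The members' windows also had a median of 20 CpG pairs and 58.0% G and C, against 7 pairs and 52.7% over all windows, and the part of base composition in these shares was not tested. The Cox7a1 window held none of the 3 motifs, with 7 CpG pairs and 53.0% G and C. The Cox7a2 window held none either, with 20 CpG pairs. The Cox6a1 window held the NRF-1 letters on both strands, overlapping, from 162 bases before the start site (offset -162), and the ETS letters at offset -16.

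Cox7a1 had levels of -3.61, -3.28 and -3.67 in GFP+ cells of sorts 1, 2 and 3, against -1.87, -1.70 and -1.97 in GFP- cells. All 3 GFP+ arrays lay below all 3 GFP- arrays. The means were -3.52 ± 0.21 in GFP+ cells and -1.85 ± 0.13 in GFP- cells (SD, n = 3 each), a difference of -1.67 (SE 0.17, 95% interval -2.09 to -1.26, limma adjusted p = 0.00968), or 3.19-fold lower. The gene was well above background on every array, with intensities of 129, 165 and 41.9 in GFP+ cells and 459, 517 and 141 in GFP- cells. It ranked 129th of 16361 genes by p-value and 362nd from the lowest difference. Its only probe lies on chromosome 7 between positions 30970337 and 30970948 of build mm9, as the array files give them.

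The Cox7a1 difference was -1.82 within slide 1 and -1.71 within slide 3, the slides that held both groups. With the slide as a block it was -1.77 (adjusted p = 0.0197), a value that rests on those same slides. The Cox7a1 difference was smallest, -1.14 (adjusted p = 0.0403), when the background was fitted with normexp and an offset of 50 was added. Adding a constant by itself shrinks log2 differences of dim genes, and its part in this value was not tested. Leaving out 1 sort at a time ended the call (adjusted p = 0.229 without sort 1, 0.118 without sort 2 and 0.0897 without sort 3), as did leaving out the GFP+ array of sort 1 (0.0589), while the difference stayed between -1.79 and -1.60 when any array or sort was left out. The αβ T cell and B cell marker sums given above were also lower in every GFP+ array than in every GFP- array. Of the 6 tested αβ T cell genes, 5 were lower in GFP+ cells of all 3 sorts. The B cell list was mixed, with 2 of its 7 tested genes lower in all 3 sorts and 3 with a difference above 0. Most of the B cell sum was Cd79b, which differed by -0.92 (limma adjusted p = 0.0597). The marker sums of stroma and endothelium were low and lower in GFP+ cells of each sort. They were 1.85, 1.78 and 2.72 in GFP+ cells of sorts 1, 2 and 3, against 2.35, 2.28 and 3.88 in GFP- cells. All 3 tested genes of that list (5 of 6 were measured on any array, Cdh5 on none) were lower in all 3 sorts, 2 of them with an unadjusted p under 0.05 (Pecam1 and Pdgfrb) and none called by limma. Within the αβ T cell list Cd8b1 was lower by limma (-2.86, adjusted p = 0.0194), and in the γδ T cell list so were Tcrg-V5 (-2.24, adjusted p = 0.00846) and Tcrg-V6 (-4.02, adjusted p = 0.0118), which name variable segments of the γ chain. The part of these cells in the Cox7a1 difference was not tested.

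The paralogue Cox7a2 had levels of 4.52, 4.93 and 5.09 in GFP+ cells, against 4.61, 4.78 and 4.82 in GFP- cells. The groups overlapped, with a difference of 0.11 (95% interval -0.37 to 0.59, adjusted p = 0.966). The change of Cox7a1 relative to Cox7a2 within the same sort was -1.65, -1.73 and -1.98 (mean -1.78, SD 0.18). Cox7a2l, the third VIIa paralogue, encodes a protein first studied as a supercomplex assembly factor, of which C57BL6 mice are known to carry a short form defective in that role, and had levels of 6.51, 6.38 and 6.43 in GFP+ cells and 6.61, 6.66 and 6.74 in GFP- cells. Its arrays did not overlap, but the difference of -0.23 missed the threshold (SE 0.13, adjusted p = 0.634). Its other probes gave -0.27 and -0.40.

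**Figure D2:**
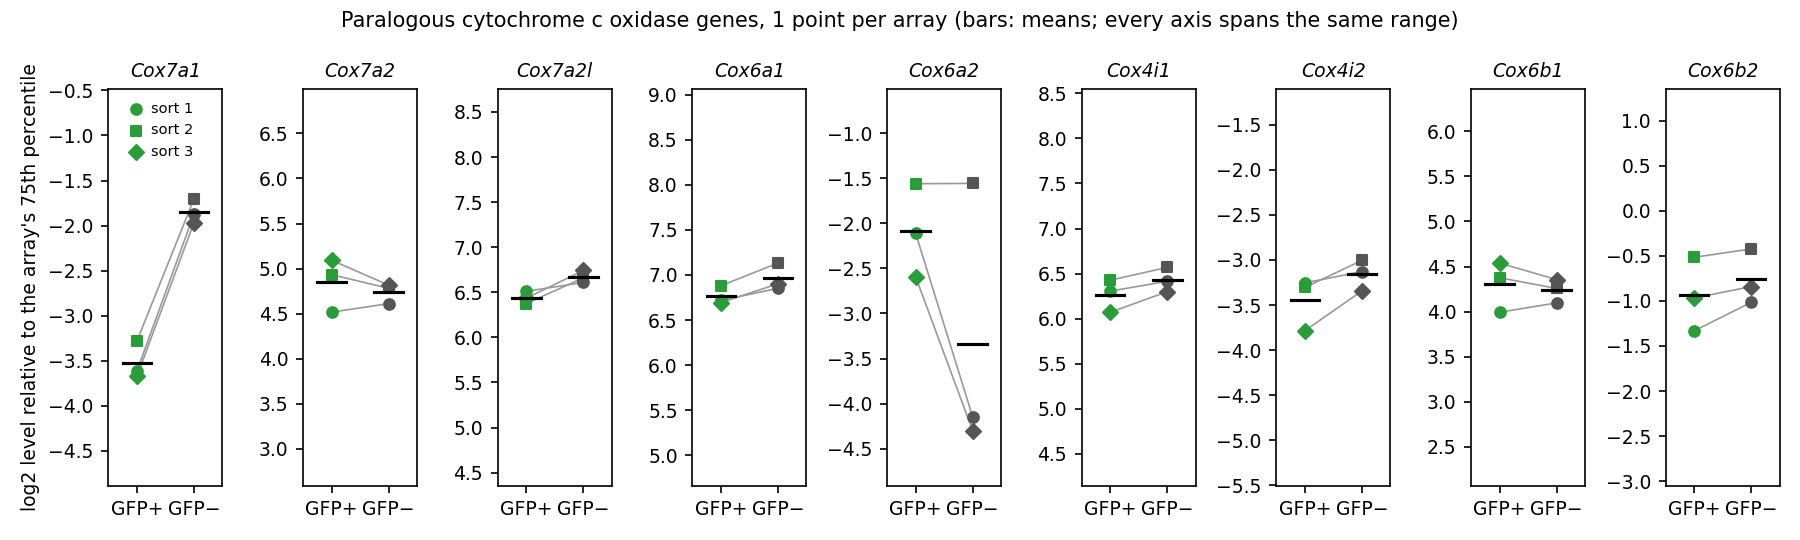
Log2 level relative to the array's 75th percentile (vertical axis) of 9 paralogous complex IV genes, with GFP+ arrays left of GFP- arrays, lines joining the arrays of a sort and bars at the group means. Each axis covers the same number of log2 units, and only Cox7a1 shows all 3 lines steep in 1 direction, between -1.57 and -1.74.

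The other isoform pairs did not pass the test. Cox6a2, the muscle isoform of subunit VIa, had levels of -2.11, -1.56 and -2.59 in GFP+ cells, against -4.14, -1.56 and -4.30 in GFP- cells. It was well above background on 3 GFP+ and 2 GFP- arrays. It was higher in GFP+ cells of sorts 1 and 3 and level in sort 2, giving a difference of 1.25 with a wide interval (-0.70 to 3.19, adjusted p = 0.705). In sort 2 the marker sums were raised in both groups for myeloid cells (318 in GFP+ and 310 in GFP- cells, against at most 49.6 in the other sorts) and dendritic cells (139 in GFP+ and 153 in GFP- cells, against at most 78.5). NK cell and ILC1 markers were also highest in sort 2 (181 in GFP+ and 172 in GFP- cells, against 48.0 and 59.1 in the other GFP- arrays), as were the low platelet markers (0.697 in GFP+ and 0.587 in GFP- cells), while erythroid markers stood at 241 in GFP+ and 261 in GFP- cells. The part of these cells in the Cox6a2 levels was not tested. Its widely expressed paralogue Cox6a1 differed by -0.20 (adjusted p = 0.782). Cox4i1 and Cox4i2, the common and the lung and hypoxia-linked isoforms of subunit IV, differed by -0.16 (adjusted p = 0.893) and -0.29 (adjusted p = 0.757). Cox6b1 differed by 0.07 and its testis isoform Cox6b2 by -0.18. The testis isoforms Cox7b2 and Cox8c and the muscle isoform Cox8b were well above background on no array.

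Among complex IV subunits with no measured isoform, Cox5a had the largest difference with 1 direction in all 3 sorts. Its levels were 5.60, 5.77 and 5.65 in GFP+ cells and 5.73, 6.18 and 6.02 in GFP- cells, and the groups overlapped (difference -0.30, 95% interval -0.72 to 0.11, adjusted p = 0.628). Cox7b and Cox8a, small membrane subunits, differed by -0.0021 and 0.06. Ndufa4, first described in complex I and now assigned to complex IV, differed by 0.11. In all, 8 of 16 tested complex IV genes (50%) were lower and 2 (12.5%) were higher in GFP+ cells of all 3 sorts, against 27.1% and 25.2% of all genes.

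Complex I, NADH dehydrogenase, is the largest complex of the chain. Of its 36 subunits, 14 (38.9%) were lower and 5 (13.9%) higher in GFP+ cells of all 3 sorts, against 27.1% and 25.2% of all genes. None was called by limma, and 1, Ndufv3, had an unadjusted p under 0.05. Ndufv3, an accessory subunit of the NADH-binding arm, had levels of 5.05, 5.06 and 4.91 in GFP+ cells, against 5.32, 5.54 and 5.37 in GFP- cells. The groups did not overlap, but the difference of -0.41 did not pass after adjustment (SE 0.14, 95% interval -0.75 to -0.07, adjusted p = 0.289, and 0.0923 with the sort as a block). Its dimmer probes gave -0.39 and -0.10. Ndufb7 and Ndufs5, accessory subunits on the intermembrane side of the membrane arm, differed by -0.25 (adjusted p = 0.668) and -0.22 (adjusted p = 0.730).

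Neither of the catalytic subunits of complex I examined singly passed the test. Ndufv1, which binds the flavin that accepts electrons from NADH, had levels of 3.60, 3.60 and 3.39 in GFP+ cells and 3.78, 3.76 and 3.59 in GFP- cells. Its difference was -0.18 (95% interval -0.53 to 0.17, adjusted p = 0.809), and the groups overlapped. Ndufs1, an iron-sulfur subunit of the same arm, differed by 0.09, higher in GFP+ cells in all 3 sorts. The brightest complex I subunits on these arrays, Ndufa13 and Ndufa1, both needed for assembly, differed by -0.09 and -0.10. Differences of all 36 subunits ran from -0.41 to 0.15. Among the 7 assembly factors the range was -0.18 to 0.14. Ndufaf5, which hydroxylates the subunit Ndufs7, differed by -0.18, Ndufaf3, an early assembly factor, by 0.14, and Ndufaf7, a methyltransferase, by -0.02.

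Complex II, succinate dehydrogenase, had the narrowest range, from -0.08 to 0.02. It also has the fewest genes of the complexes, and a range tends to grow with the number of genes. Sdha, the flavoprotein that oxidises succinate, had levels of 3.80, 3.64 and 3.62 in GFP+ cells, against 3.76, 3.60 and 3.65 in GFP- cells. Sdhb, the iron-sulfur subunit, had 4.97, 5.04 and 4.80 in GFP+ cells and 5.01, 5.08 and 4.87 in GFP- cells. The groups overlapped for both genes, and the 95% intervals ran from -0.32 to 0.35 for Sdha and from -0.40 to 0.30 for Sdhb. The membrane anchors Sdhc and Sdhd differed by -0.01 and -0.08, with wider 95% intervals of -0.66 to 0.64 and -0.46 to 0.30.

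In complex III, 7 of 8 genes (87.5%) had a difference below 0, against 51.7% of all genes. In GFP+ cells of all 3 sorts 4 (50%) were lower, against 27.1% of all genes. The gene with a difference above 0 was Uqcrb, a small subunit near the ubiquinone site, with levels of 4.40, 4.74 and 4.55 in GFP+ cells against 4.23, 4.50 and 4.20 in GFP- cells. It was higher in GFP+ cells of each sort, though the groups overlapped (difference 0.26, 95% interval -0.15 to 0.67, adjusted p = 0.721). Its other probes gave 0.43 and 0.53. The small subunits Uqcrq and Uqcr10 differed by -0.17 (adjusted p = 0.850) and -0.15 (adjusted p = 0.876), and the hinge protein Uqcrh by -0.05. Uqcrfs1, the Rieske iron-sulfur protein that carries electrons within the complex, differed by -0.03 (95% interval -0.45 to 0.39). With each array scaled to its median the complex III median was 0.02, so the signs of such small differences depend on the scaling.

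The 16 ATP synthase names had differences from -0.27 to 0.16, with 8 below and 8 above 0, beside 51.7% of all genes below 0. Atp5c1, the γ subunit of the rotating stalk, had levels of 5.66, 5.62 and 5.28 in GFP+ cells and 5.83, 5.88 and 5.65 in GFP- cells. It was lower in GFP+ cells of each sort, but the groups overlapped (difference -0.27, adjusted p = 0.689). Atp5j, a stalk subunit, and Atp5a1, the α subunit of the catalytic head, were higher in GFP+ cells of each sort by a mean of 0.16 (adjusted p = 0.964) and 0.13 (adjusted p = 0.904). Atp5g1, Atp5g2 and Atp5g3 encode the same mature c-ring protein from separate genes and differed by -0.06, 0.06 and 0.02. Atp5e, the ε subunit, differed by -0.02.

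Among the names that matched only by spelling, Atp5s, a coupling factor called Dmac2l in RefSeq, was dim, with levels of -3.98, -3.64 and -3.72 in GFP+ cells against -4.64, -4.53 and -4.15 in GFP- cells. The groups did not overlap, and the difference of 0.66 (SE 0.19, 95% interval 0.19 to 1.13) had an adjusted p of 0.206, or 0.0615 with the sort as a block. With the normexp background and its offset of 50, which shrinks differences of dim genes, it was 0.25. Atp5sl, a complex I assembly factor called Dmac2 in RefSeq, differed by -0.08. Ndufa4l2 was well above background on no array. Of the members, 29 had several measured probes, and 10 of these had probes of opposite direction, none past 0.25 both ways. The brightest Atp5l probe lies on chromosome X and its other probes on chromosome 9, so that value may belong to a near-identical copy.

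The sorts differed more than the groups for most members, as for most genes, and a range over 3 means tends to exceed a difference of 2. The range of the mean level over the 3 sorts exceeded the size of the group difference for 79 of the 89 members (88.8%), against 77.7% of all genes, with a median range of 0.28 and a median absolute group difference of 0.09. The sort carried 84.4% of the sum of squares of the ATP synthase genes and 93.3% of that of complex II, while the group carried 7.46% and 2.15%. A term with 3 levels tends to take more than a term with 2. In complex II, Sdhc had by far the largest sum of squares, 0.48, followed by Sdhd with 0.09. In complex IV the sort carried 45.3% and the group 45.7%, but the dim genes Cox6a2 and Cox7a1 had by far the largest sums of squares, 7.60 and 4.33. Cox6c came next in that class with 0.72. Over all members without Cox7a1, but with Cox6a2, the sort carried 65.2% and the group 23.1%, beside 65.5% and 27.6% for all genes.

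Several genes stood higher in sort 3 than in the mean of sorts 1 and 2, chosen here after their values were seen. These were Sdhc by 0.59, Cox5b by 0.53, Cox6c by 0.51, Atp5o by 0.51 and Atp5j by 0.50. Sdhc had 3.15, 3.14 and 3.82 in GFP+ cells of sorts 1, 2 and 3, and 3.16, 3.25 and 3.72 in GFP- cells, so sort 3 was the highest in both groups. The same held for 18 of the 89 members, 8 of them in the ATP synthase. The share over all genes was not taken, so the count is not read as a trait of the members. Sort 3 minus the mean of sorts 1 and 2 had a median of -0.01 over the members and -0.03 over all genes. Other members were lower in sort 3. The same measure was -0.50 for Ndufaf4, -0.46 for Ndufaf5 and -0.42 for Ndufa10, and -1.10 for Cox6a2, which was highest in sort 2. Age, RNA input and slide all differed between sort 3 and the other sorts and cannot be told apart. The sorts also differed in markers of other cells. Summed erythroid markers were at most 25.1 in either group of sort 1. They were 241 in GFP+ and 261 in GFP- cells of sort 2, and 302 in GFP+ and 175 in GFP- cells of sort 3, and their part in the sort differences was not tested.

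**Figure D3:**
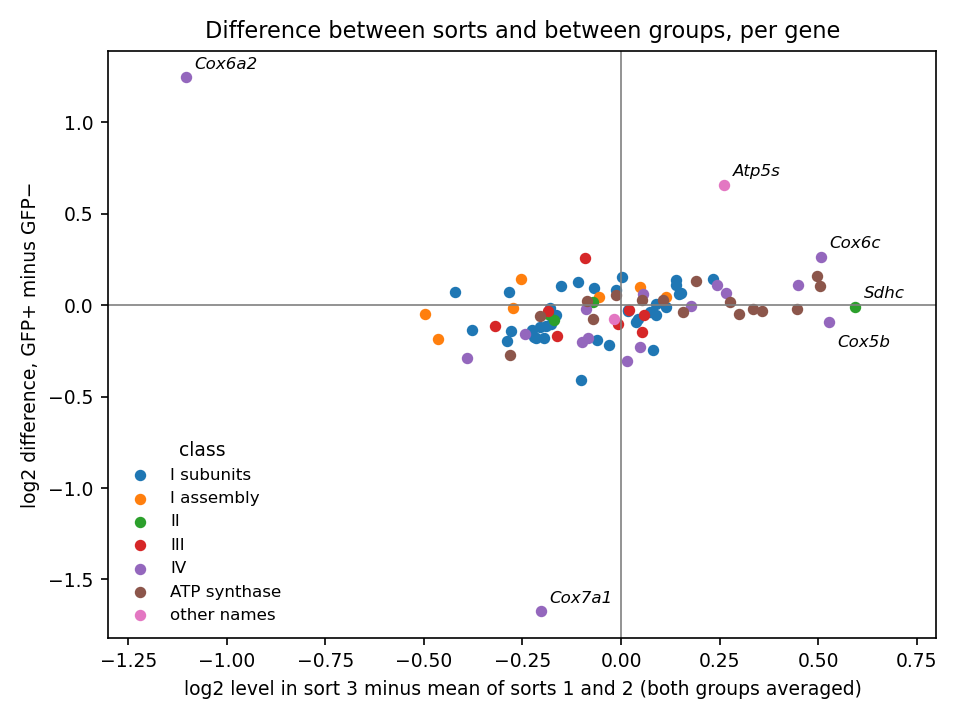
Log2 level in sort 3 minus the mean of sorts 1 and 2, averaged over both groups (horizontal axis), against the log2 difference GFP+ minus GFP- (vertical axis), with 1 point per member tested, coloured by class. Most points spread more along the horizontal axis than along the vertical one, and Cox7a1 stands at -1.67 on the vertical axis.

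Genes of the pathway outside the name rule were read from lists. Beside each count of genes called by limma, genes with an unadjusted p under 0.05 are given where there were any. All 13 subunits encoded in mitochondrial DNA were measured, and none was called, with a median difference of 0.18. In GFP+ cells 9 of them (69.2%) were higher in all 3 sorts and 1 (7.69%) was lower, against 25.2% and 27.1% of all genes. Of the cytosolic ribosomal proteins, which are also bright, 72.8% were higher in all 3 sorts. COX1, the catalytic subunit of complex IV, had levels of 8.28, 8.39 and 9.31 in GFP+ cells and 8.02, 8.27 and 9.13 in GFP- cells. Its groups overlapped, with sort 3 highest in both (difference 0.18, SE 0.41, adjusted p = 0.976). COX2, which receives electrons from cytochrome c, differed by 0.12. ND6, the only one of these subunits encoded on the opposite DNA strand, was the 1 below 0, with -1.32, -1.74 and -2.05 in GFP+ cells and -0.89, -1.13 and -1.37 in GFP- cells (difference -0.57, adjusted p = 0.431). These genes stood a median of 0.73 higher in sort 3 than in sorts 1 and 2.

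Of 34 assembly factors outside the name rule none was called (median -0.06), and with the sort as a block 1 was higher, the copper chaperone Cox17. It had -3.77, -3.08 and -1.01 in GFP+ cells and -4.39, -4.18 and -2.00 in GFP- cells, a difference of 0.90 with an adjusted p of 0.900 without the block and 0.0354 with it, when 3.67% of all genes were called higher. The brightest of the list, the complex IV assembly factors Cox16 and Coa3, differed by -0.15 and -0.08. Of 18 electron carriers and ubiquinone synthesis genes none was called (median -0.04), and cytochrome c itself, Cycs, differed by 0.02 and the electron transfer flavoprotein Etfb by 0.08. Of 23 citric acid cycle and pyruvate dehydrogenase genes none was called (median -0.03). With the sort as a block 1 was lower, Idh2, the mitochondrial NADP-dependent isocitrate dehydrogenase. Idh2 had 1.98, 2.09 and 2.01 in GFP+ cells against 2.90, 2.69 and 2.66 in GFP- cells, without overlap (difference -0.72, SE 0.14, adjusted p = 0.0641 without the block and 0.0384 with it, when 4.33% of all genes were called lower). Idh3a, a subunit of the NAD-dependent enzyme, was the other gene of this list with an unadjusted p under 0.05 (difference -0.36, adjusted p = 0.379). Mdh2 and Cs, malate dehydrogenase and citrate synthase, differed by -0.18 and -0.04.

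Of 17 regulators of mitochondrial biogenesis none was called, and 16 had a difference above 0 (median 0.15). Only 1 (5.88%) was below 0, against 51.7% of all genes. In all 3 sorts 6 (35.3%) were higher, against 25.2% of all genes. Tfam, which packages and transcribes mitochondrial DNA, differed by -0.0010, and the deacetylase Sirt1 by 0.03. At an unadjusted p under 0.05, 3 were higher: the coactivators Ppargc1a and Ppargc1b and the mitochondrial deacetylase Sirt3, at a threshold that 5.93% of all genes passed as higher. Sirt3 had levels of 1.34, 1.56 and 1.34 in GFP+ cells against 1.00, 1.04 and 0.69 in GFP- cells, without overlap (difference 0.51, SE 0.16, adjusted p = 0.260). Ppargc1b differed by 0.42 (adjusted p = 0.309) and Ppargc1a by 1.35 (SE 0.54, adjusted p = 0.397), both well above background on 2 arrays of each group. With the slide as a block, and so without weight from the GFP+ array of sort 2, Ppargc1a was called higher (1.69, adjusted p = 0.0204), beside 1.05% of all genes. The transcription factors whose motifs were searched differed by 0.0031 for Nrf1 (adjusted p = 0.998), 0.27 for Gabpa (adjusted p = 0.871) and 0.14 for Yy1 (adjusted p = 0.956). Of 9 adenine nucleotide carriers, uncoupling proteins and related genes none was called (median -0.17). In GFP+ cells of all 3 sorts 6 (66.7%) were lower, against 27.1% of all genes. The carriers Slc25a4 and Slc25a5, which exchange ADP for ATP, differed by -0.07 and -0.17. With each array scaled to its median in place of its 75th percentile, the all-gene median was 0.09 and that of the members 0.07, so the signs of the list medians depend on the scaling and are to be read against that of all genes.

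**Figure D4:**
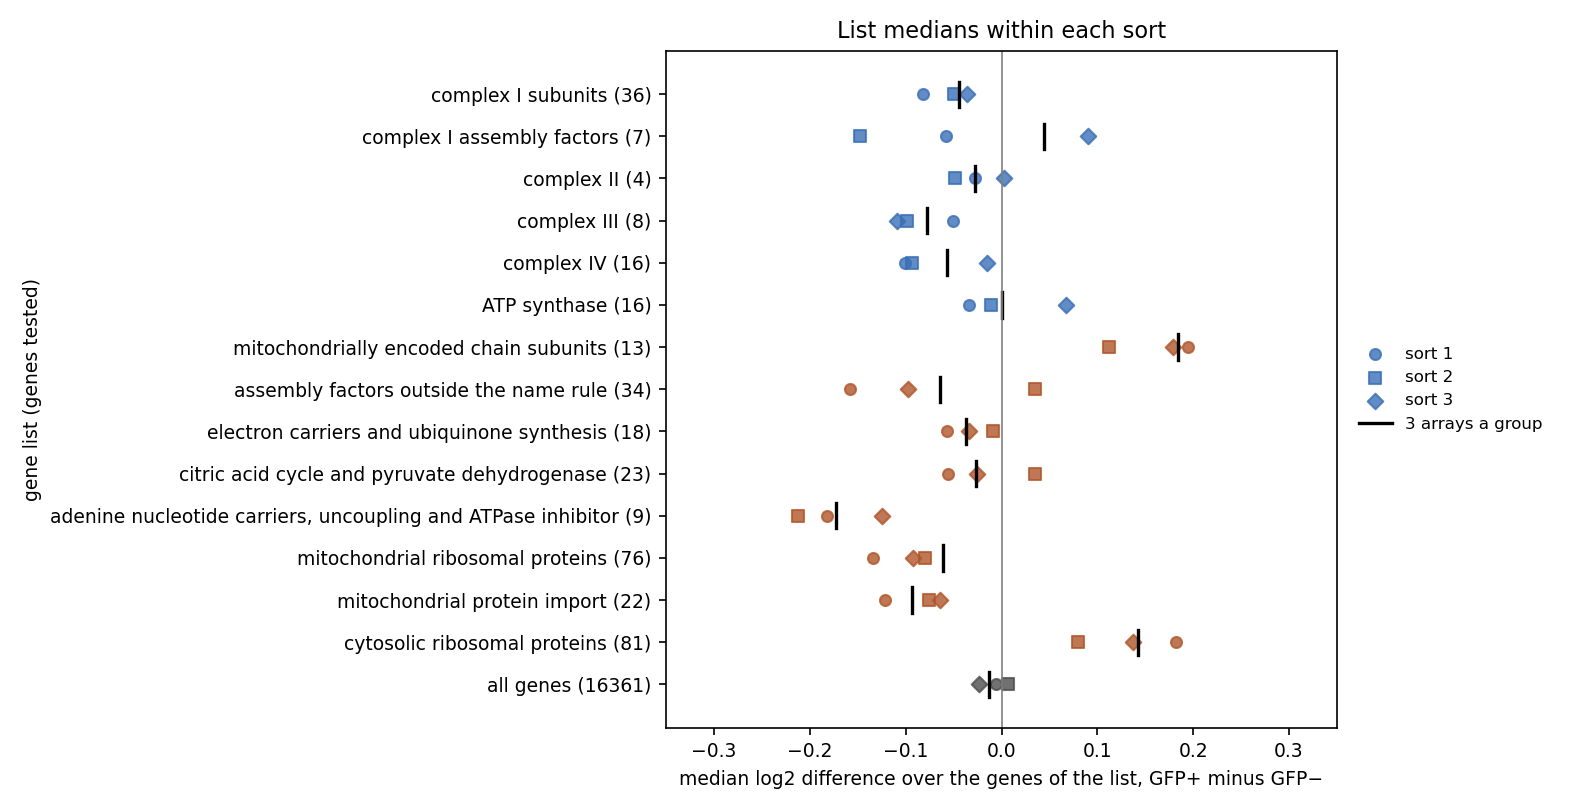
Median log2 difference GFP+ minus GFP- (horizontal axis) of each gene list, with the number of genes tested in brackets, for each sort (points) and over 3 arrays a group (bars). Chain classes are blue, other lists brown and all genes grey. The chain classes lie between -0.15 and 0.09 in every sort, and all genes lie between -0.02 and 0.01.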

How the data were processed

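Total RNA of sorted γδ T cells was measured on 6 one-colour Agilent arrays. Per the file headers, the deposited scanner files hold linear intensity values that Agilent's Feature Extraction software, version 10.7.3.1, had corrected for background and detrended, with positions in build mm9. Other columns of these deposited files hold 0 or 1 flags per spot (saturation, outlier, clearly brighter than background). The authors' deposited table of intensity values differed from the scanner values by a constant log2 offset in each array, over probes measured on all 6 arrays, and was an alternative.

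For each of 39429 probes, log2 processed intensity was averaged over its 4 spots without outlier spots, and the array's 75th percentile was subtracted. A probe was taken as measured, or well above background, on an array that flagged 50% or more of its spots so. Arrays give no counts, so their number, 3 a group, limits the precision. The comparison used limma (version 3.58.1, R version 4.3.3) with group as the only term and moderated variances, with Benjamini-Hochberg adjustment over all genes tested. The procedure was tested on simulated data in which arrays varied independently, so the correlation within sorts was not part of that test. The sort was a block in an alternative. Same-numbered samples were taken as coming from the same sort, as the labels give them the same age and RNA input. Their deviations correlated at 0.808 to 0.818, while those of differently numbered samples correlated at -0.57 to -0.26. Deviations were taken from the mean of the 3 arrays of a group, so the negative values follow from the positive ones and add no evidence. Slide 1 held both arrays of sort 1 and the GFP- array of sort 2, slide 2 the GFP+ array of sort 2, and slide 3 both arrays of sort 3. With the slide as a block, the single array of slide 2 was fitted exactly and added nothing to the group difference. Slide 1 also sets the GFP- array of sort 2 against the GFP+ array of sort 1.

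The members and lists were chosen with earlier results of these data known. Genes named were the called members, the 3 largest differences with 1 direction in each class, the 2 brightest in each class and list, and a set of isoforms and catalytic subunits named whatever their result. Cd8b1, Cd79b, Klre1, Styk1, Klrb1c, Itgax, Tcrg-V5, Tcrg-V6, ND6, Cox17, Idh2, Idh3a, Sirt3, Ppargc1a, Ppargc1b, Nrf1, Gabpa, Yy1, Mrps5, Mrps18b, Mrps26, Timm23, Pecam1 and Pdgfrb were named outside this rule after their values were seen. Members not named are given by counts and ranges. Probe names were matched to RefSeq (GRCm38.p6) by accession for 88 of 93 members, all 88 on the matching chromosome. Alternatives changed the background correction, scaling, filter, probe choice, blocks and arrays used.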

Additional observations from a re-analysis of the deposited data

How the results depend on the processing

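Cox7a1 was lower in GFP+ cells under all 23 other settings, with differences of -1.82 to -1.14, and was called in 17 of the 21 that allow a test, the exceptions being the 4 that leave out a sort or the GFP+ array of sort 1. The other named members were called under none of the 839 tests of alternatives. The count of members called was 0 higher and 1 lower under every tested setting that kept all arrays, the replicate block included, and 0 to 1 lower and 0 higher when an array or sort was left out. Without sort 1 or sort 2 limma called 0 genes of the whole array in either direction, and without sort 3 it called 42 higher and 28 lower, against 197 and 256 with all arrays (601 and 708 with the replicate block). With median scaling the class medians were 0.099 for the ATP synthase, 0.054 for complex I subunits, 0.070 for complex II, 0.020 for complex III, 0.041 for complex IV and 0.069 for all members. With the slide as a block they were -0.060 for the ATP synthase, -0.073 for all members, -0.10 for complex I, -0.12 for complex III and -0.12 for complex IV, and with the slide as a random block -0.074 for complex I. Within slide 1 they were -0.11 for the ATP synthase, -0.14 for all members, -0.15 for complex I, -0.065 for complex II and -0.18 for complex IV, and within slide 3 they were 0.068 for the ATP synthase and 0.0026 for complex II. Quantile normalization gave -0.0065 for complex I and 0.015 for complex II, the mean of all probes gave -0.068 for complex I and -0.034 for complex III, and no filter on dim probes gave -0.0093 for complex IV. The slide block and the values within slides take nothing from the GFP+ array of sort 2. The cause of these shifts beyond the arrays used was not tested. Leaving out an array or a sort gave medians of -0.084 to 0.097 for the ATP synthase, -0.064 to 0.018 for all members, -0.033 to 0.099 for assembly factors, -0.092 to 0.0051 for complex I, -0.050 to -0.0073 for complex II, -0.14 to -0.027 for complex III and -0.13 to 0.041 for complex IV. Cox7a1, Cox6a2, Cox4i2 and Atp5s were dim, so their values depend on the background correction and, with normexp, on the added offset of 50.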

Other observations

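Of 76 mitochondrial ribosomal proteins, which translate the mitochondrial messages of the chain, none was called by limma with a median difference of -0.06. In GFP+ cells 39 (51.3%) were lower and 6 (7.89%) higher in all 3 sorts, against 27.1% and 25.2% of all genes. With the sort as a block 1 was lower, Mrps5, with 0.30, 0.42 and 0.69 in GFP+ cells against 1.27, 1.35 and 1.98 in GFP- cells (difference -1.06, SE 0.24, adjusted p = 0.105 without the block and 0.0208 with it, when 4.33% of all genes were called lower). The brightest, Mrpl52 and Mrpl33, differed by 0.20 and -0.22. At an unadjusted p under 0.05, 3 of the list were lower (Mrps5, Mrps18b and Mrps26) and none was higher, against 6.32% and 5.93% of all genes.

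Of 22 mitochondrial import genes none was called (median -0.09), and Timm23 alone had an unadjusted p under 0.05 (difference -0.43, adjusted p = 0.316). In GFP+ cells of all 3 sorts 12 (54.5%) were lower and 3 (13.6%) higher, against 27.1% and 25.2% of all genes. Tomm7 and Tomm5, small subunits of the outer membrane translocase, differed by 0.09 and -0.12. Of 10 antioxidant enzymes none was called or had an unadjusted p under 0.05 (median -0.03), and the brightest, Glrx2 and Gpx1, differed by 0.06 and -0.51 (adjusted p = 0.648 for Gpx1). Of 81 cytosolic ribosomal proteins none was called or had an unadjusted p under 0.05, and the median was 0.14. In all 3 sorts 59 (72.8%) were higher and 2 (2.47%) lower, against 25.2% and 27.1% of all genes. Rplp2 and Rps16 each differed by 0.15, with standard errors of 0.48 and 0.47.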
